A study of Mus musculus with 3 samples.

Results

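The 10 genes described here, whose products modify, fold or crosslink collagen, were followed through regenerating mouse muscle: the lysyl oxidases Lox, Loxl1, Loxl2 and Loxl3, the lysyl hydroxylases Plod1 and Plod2, the prolyl 4-hydroxylase subunits P4ha1, P4ha2 and P4ha3, and the collagen chaperone Serpinh1, also called HSP47. They were chosen by symbol, each symbol named 1 feature, and together they are 10 of the 32285 features measured. Tibialis anterior muscle of C57/BL6J mice was injured with BaCl2, a salt that kills muscle fibres, and its cells were profiled on day 4 by droplet single-cell RNA sequencing. The young PBS group was 3 to 4 months old, and the old PBS and old rMETRNL groups were 24 to 26 months old. PBS is the saline vehicle, and rMETRNL is recombinant meteorin-like, a secreted cytokine, given into the injured muscle. Each group is 1 library made from the pooled cells of several mice, so age, treatment and library cannot be told apart, no difference has a replicate check, and no p-value is given. No uninjured muscle was part of the comparison, and the old rMETRNL group has no young counterpart.

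Collagen chains are modified in the endoplasmic reticulum while they are being made. Prolyl 4-hydroxylase, a tetramer of 2 catalytic alpha subunits (P4ha1, P4ha2 or P4ha3) with P4hb, turns prolines into 4-hydroxyprolines, which keep the triple helix stable at body temperature. Lysyl hydroxylases modify lysines of the chains, and Plod2 acts on the telopeptides, the chain ends from which crosslinks later form. The heat shock protein Serpinh1 binds the folded helix and accompanies it out of the endoplasmic reticulum, and lysyl oxidases then oxidise lysines outside the cell so that fibres become covalently linked. Prolyl and lysyl hydroxylases need oxygen, iron and 2-oxoglutarate, and several of their genes are known targets of hypoxia-inducible factors. In injured muscle the main makers of matrix are fibro-adipogenic progenitors (FAPs), mesenchymal cells between the fibres.

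The libraries held 12168 (young PBS), 12568 (old PBS) and 14012 (old rMETRNL) barcodes, of which 10312, 10015 and 11455 were kept as cells, with median depths between 13764 and 15091.5 UMIs. A UMI is 1 tagged transcript molecule. FAP-like cells, named from clusters that had been built without the 10 genes, numbered 1636, 1331 and 1711 and carried 45324507, 29878970 and 44511464 UMIs. All 14 FAP markers were detected in them in every library. Their summed level differed, however, at 11554, 18875 and 14112 CPM (UMIs per 1000000 UMIs of the class), with Dcn at 3691, 6184 and 4691 CPM. All were highest in old PBS except Ly6a (1417, 1352 and 1751 CPM), Pdgfrl (224, 209 and 127 CPM) and Dpp4 (18.0, 26.4 and 31.7 CPM). Of the markers of other cells, the endothelial list summed to 29.1 to 47.9 CPM in FAP-like cells and the macrophage list to 206 to 244 CPM, against at least 7316 and 25084 CPM in their own classes. The tenocyte list was the highest of the other lists, and highest in old PBS, at 613, 655 and 473 CPM against at least 21403 CPM in its own class, and the myogenic list summed to 277, 278.6 and 248 CPM against at least 2402 CPM. Their part in the results below was not tested. The pericyte/smooth muscle list (0 of 9 genes at 0) summed to 379, 214 and 266 CPM in FAP-like cells, against at least 15028 CPM in its own class, and the mature fibre list (0 of 8 at 0) to 19.3, 83.8 and 42.6 CPM. The first is in the same order of libraries as P4ha2, P4ha3 and Serpinh1 below, and the second in the reverse order; their part in those results was not tested. Pairs of libraries shared 58 to 80 barcodes.

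Levels are given below as CPM of the class in that library, in the order young PBS, old PBS, old rMETRNL. A ratio of 2 libraries is followed by its exact 95% interval, which covers counting error only and not the spread between mice. A ratio at least 25% above 1, or its inverse of at most 0.8, is called higher or lower (past the fold), where both libraries together hold at least 50 UMIs. UMIs are read at the 3' end and were not scaled per transcript length, so the levels of different genes are not set against each other. No other protein-coding gene on the same strand overlaps any of the 10.

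Most of the 10 genes were genes of FAP-like and tenocyte-like cells. FAP-like cells held 75.1 to 90.2% of the UMIs of Lox, Loxl1, Loxl2, Loxl3, Plod2, P4ha2, P4ha3 and Serpinh1 in the 3 libraries. Plod1 and P4ha1 were spread more widely, with 29.7 to 32.2% and 41.1 to 48.2% of their UMIs in FAP-like cells and 36.2 to 44.9% and 24.7 to 32.4% in macrophage/monocyte-like cells. The macrophage/monocyte-like shares leave out 2 unnamed clusters that also scored best as that class. Loxl1, Loxl3, Plod2, P4ha2, P4ha3 and Serpinh1 were highest in FAP-like cells, with no library of the next class reaching the lowest FAP-like library. Lox was instead highest in tenocyte-like cells, the tendon fibroblasts, at 1354, 1176 and 1549 CPM against 718, 717 and 688 CPM in FAP-like cells. Plod1 was also highest there, at 193, 168 and 163 CPM, followed by endothelial-like cells at 147, 113 and 125 CPM and FAP-like cells at 101, 115 and 99.5 CPM, and the ranges of those 2 classes overlapped. For Loxl2 and P4ha1 the ranges of FAP-like and tenocyte-like cells overlapped.

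**Figure D1:**
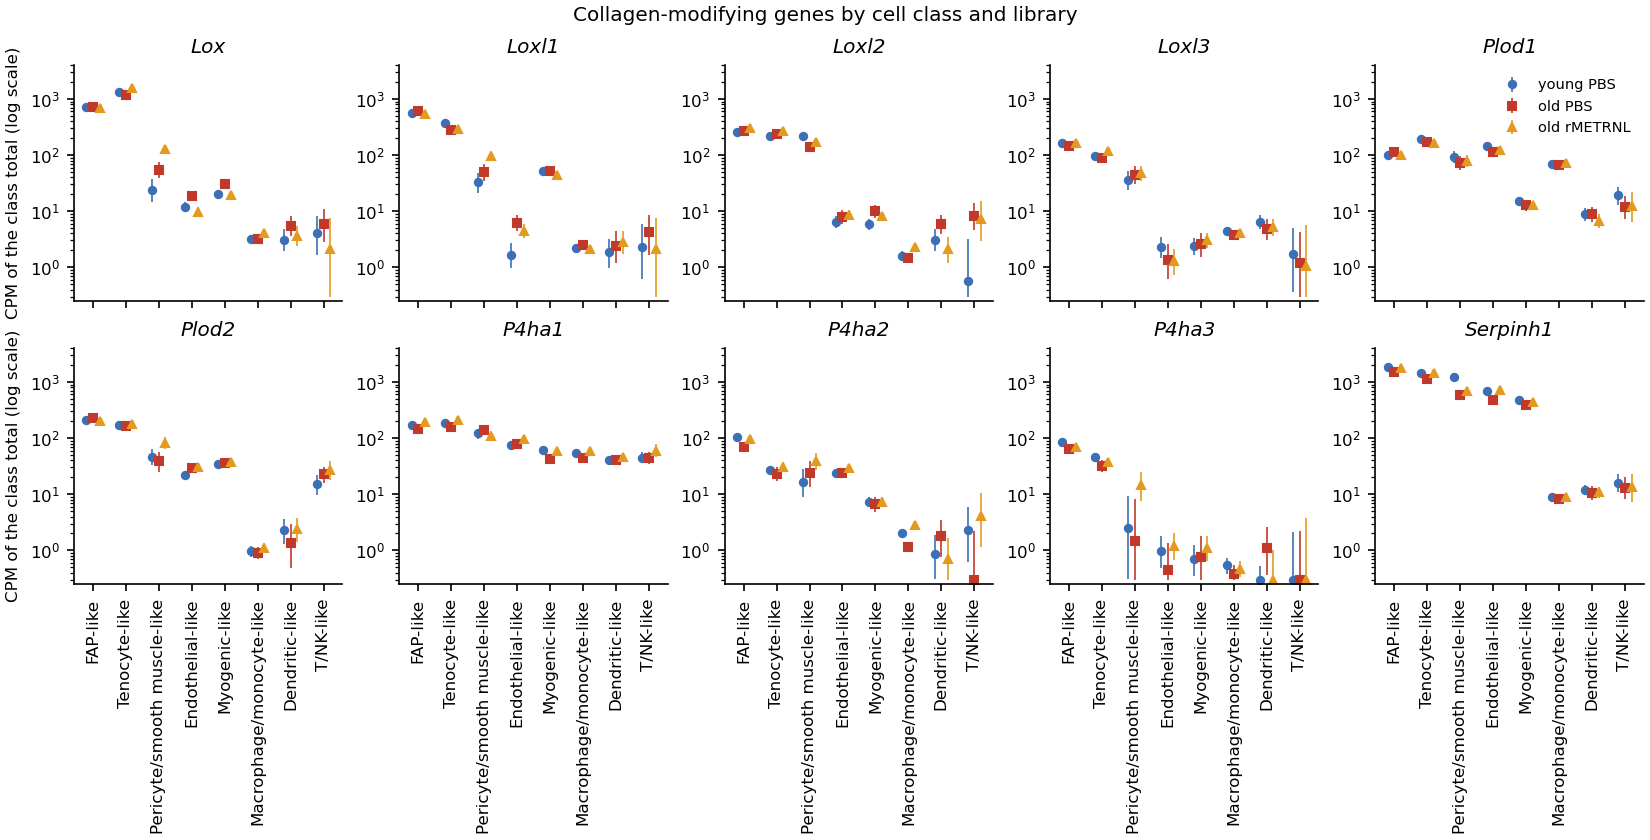
Level of each gene (CPM of the class total, log scale) in 8 cell classes and 3 libraries, with exact 95% counting intervals; levels under 0.3 CPM are drawn at 0.3. Lox peaks in tenocyte-like cells, P4ha2 and P4ha3 in FAP-like cells, and P4ha1 and Plod1 lie between 43.8 and 73.6 CPM in macrophage/monocyte-like cells, where P4ha3 stays under 1 CPM.

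Macrophage/monocyte-like cells show how far a low level can be read. Of 6 FAP markers that macrophages should lack, Dcn, Lum, Pdgfra, Dpt and Clec3b stood there at 0.212 to 0.525% of their FAP-like level and Cxcl14 at 0.508 to 0.928%, the levels that free RNA in the droplets can give. Lox, Loxl1, Plod2 and Serpinh1 stood at 0.381 to 0.595%, Loxl2 at 0.548 to 0.770% and P4ha3 at 0.579 to 0.689%, so their macrophage values are not read as expression. Loxl3 at 2.48 to 2.70% and P4ha2 at 1.65 to 2.89% were a little above that range. P4ha1, at 54.4, 43.8 and 58.3 CPM or 29.8 to 31.1% of its FAP-like level, and Plod1, at 68.8, 66.2 and 73.6 CPM, were far above it. With every cell thinned to 2000 UMIs, 94.4%, 86.7% and 92.5% of FAP-like cells had a Serpinh1 UMI against 2.34%, 2.42% and 2.32% of macrophage/monocyte-like cells. Before thinning these shares were 99.8%, 98.8% and 99.2% against 13.3%, 12.6% and 13.7%, at median depths of 26080.5, 21893 and 24651 UMIs in FAP-like cells and 14173, 15167 and 14896 UMIs in macrophage/monocyte-like cells. Thinning left out 1, 12 and 27 FAP-like cells.

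The lysyl oxidases of FAP-like cells differed little between the libraries. Lox, which crosslinks collagen and elastin, stood at 718, 717 and 688 CPM. Its level in old PBS was 0.9995 times that in young PBS (0.982 to 1.02), and in old rMETRNL 0.959 times that in old PBS (0.942 to 0.976). Loxl1, needed for elastic fibres, stood at 571, 621 and 542 CPM, highest in old PBS, with ratios of 1.09 for age and 0.873 for treatment. Loxl2, which also acts on type IV collagen of basement membranes, stood at 262, 269 and 299 CPM and was highest in old rMETRNL (1.11 times old PBS). Loxl3 stood at 167, 145 and 165 CPM and was lowest in old PBS, at 0.867 times young PBS. None of the 4 was past the fold in any of the 3 comparisons.

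The lysyl hydroxylases did not pass the fold either. Plod1, which hydroxylates lysines within the helix, stood at 101, 115 and 99.5 CPM, with old PBS 1.15 times young PBS (1.10 to 1.198) and old rMETRNL 0.862 times old PBS (0.824 to 0.901). Plod2 stood at 209, 226 and 201 CPM, with ratios of 1.08 and 0.890. Both were highest in old PBS.

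The prolyl 4-hydroxylase subunits and Serpinh1 were all lowest in old PBS. P4ha2 differed most: it stood at 107, 69.1 and 97.8 CPM, so that old PBS was 0.647 times young PBS (0.614 to 0.681) and old rMETRNL 1.42 times old PBS (1.34 to 1.49). P4ha1, the alpha subunit used by most cell types, stood at 175, 144 and 195 CPM. Its old PBS level was 0.822 times young PBS (0.792 to 0.853), within the fold, and its old rMETRNL level was 1.36 times old PBS (1.31 to 1.41) and 1.12 times young PBS. P4ha3 stood at 85.9, 64.9 and 68.5 CPM, and old PBS was 0.755 times young PBS (0.715 to 0.798). Unlike the other 2 subunits it was close to the old PBS level in old rMETRNL, at 1.06 times (0.998 to 1.12), and it was 0.798 times the young PBS level there (0.761 to 0.837). Serpinh1 stood at 1886, 1499.7 and 1766 CPM, with old PBS 0.795 times young PBS (0.786 to 0.804) and old rMETRNL 1.18 times old PBS (1.16 to 1.19).

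Counted over the 10 genes in FAP-like cells, 3 were lower and 0 higher in old PBS than in young PBS, where 19.3% of 13428 genes were lower and 15.3% higher. In old rMETRNL against old PBS 2 were higher and 0 lower, where 13.4% of 13394 genes were higher and 12.3% lower. In old rMETRNL against young PBS 1 was lower and 0 higher, where 10.5% of 13671 genes were lower and 9.14% higher. With 10 genes, each member is 10% of the count, so these shares lie near those of all genes. Their median log2 ratio was -0.10, 0.12 and -0.06 in the 3 comparisons, beside -0.05, 0.02 and -0.01 for all genes. The age and treatment comparisons share the old PBS library, so a level that is low in that library is low in both. Over 14 alternative settings that keep the same fold, the calls of P4ha2 for age (0.638 to 0.767) and P4ha1 for treatment (1.27 to 1.37) were kept in all. At a fold of 1.5, P4ha2 for age was the 1 call left over the 3 comparisons. Serpinh1 for age ranged from 0.768 to 0.841 and lost its call under 7 of the 14. P4ha3 in old rMETRNL over young PBS ranged from 0.760 to 0.831 and lost it under 8. The libraries held different shares of the FAP-like sub-clusters described below. With 9 of the sub-clusters given equal weight, Serpinh1 (0.841) and P4ha3 (0.852) lost their age calls, P4ha1 (0.791) gained one and P4ha2 (0.677) kept its own. After thinning to 2000 UMIs P4ha2 for treatment lost its call (1.23).

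**Figure D2:**
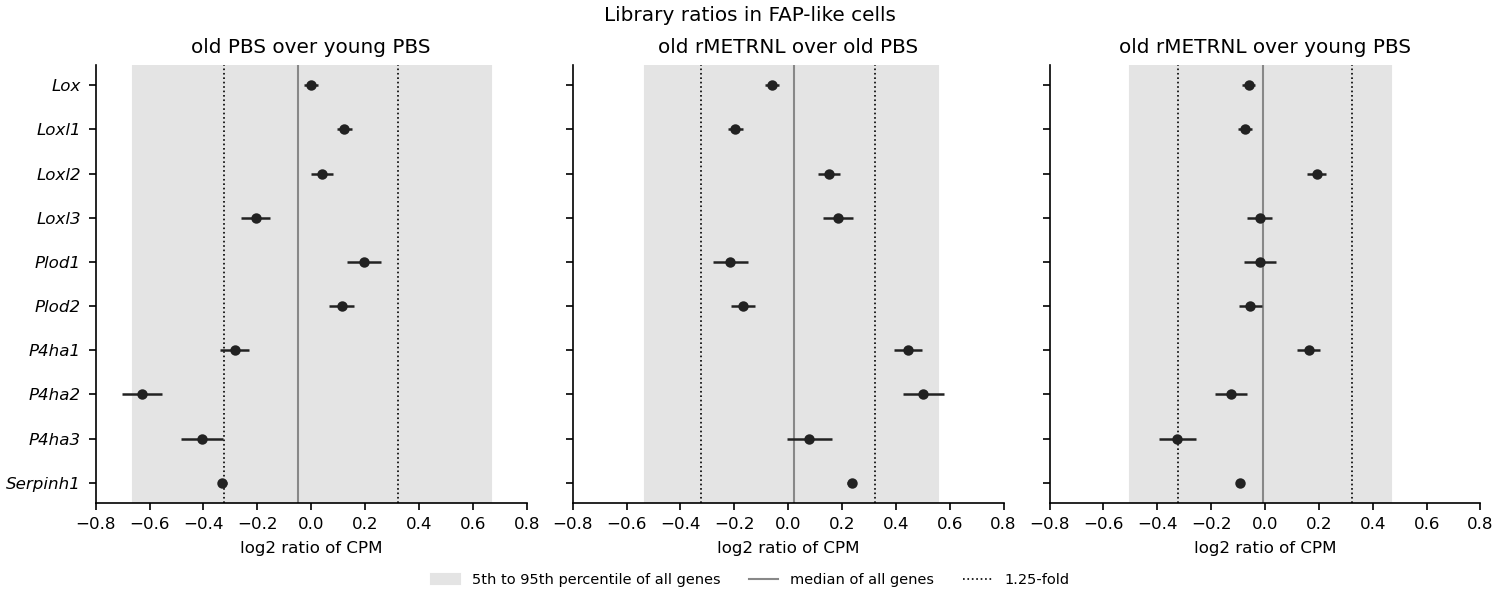
Log2 ratio of CPM for each gene in FAP-like cells in the 3 comparisons; bars are exact 95% counting intervals, the grey band holds the 5th to 95th percentile of all genes, the solid line is their median and dotted lines mark the fold. In old PBS over young PBS the P4ha genes and Serpinh1 lie left of the median of all genes and the Plod genes right of it; in old rMETRNL over old PBS P4ha1 and P4ha2 lie past the right dotted line.

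The shares of FAP-like cells with a UMI, after thinning, gave the same order for the hydroxylase subunits. P4ha2 was found in 16.2%, 12.7% and 15.3% of thinned FAP-like cells, P4ha3 in 14.3%, 9.48% and 11.3%, and P4ha1 in 28.0%, 25.1% and 30.3%. For P4ha3 the exact 95% intervals of young PBS and old PBS were 12.6 to 16.0% and 7.95 to 11.2%. For P4ha2 they were 14.5 to 18.1% and 10.9 to 14.6%. These intervals are over cells of a single library per group and not over mice, so they cannot test a difference with age. Lox was found in 61.0%, 58.9% and 60.3%.

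Promoters were searched for the hypoxia response element core, which hypoxia-inducible factors bind, in its forms ACGTG and GCGTG. RefSeq promoters on build GRCm38.p6 were found for 5 of the 10 genes: Plod1, P4ha1, P4ha2, P4ha3 and Serpinh1. P4ha1, P4ha2 and Serpinh1 are shown because they held the first form. The sequences run 5' to 3' on the gene's strand, from 200 bases before to 30 bases after the RefSeq transcription start, and capitals mark ACGTG or its complement CACGT. For P4ha2 this RefSeq start lies downstream of the GENCODE M21 gene start, at 54100095.
P4ha1 (chr10:59323096-59323325, plus strand): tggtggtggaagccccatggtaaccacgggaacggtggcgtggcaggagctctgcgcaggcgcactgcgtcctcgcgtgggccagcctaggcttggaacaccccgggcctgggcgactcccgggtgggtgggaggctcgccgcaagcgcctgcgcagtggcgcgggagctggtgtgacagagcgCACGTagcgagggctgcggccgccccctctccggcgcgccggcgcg
P4ha2 (chr11:54100724-54100953, plus strand): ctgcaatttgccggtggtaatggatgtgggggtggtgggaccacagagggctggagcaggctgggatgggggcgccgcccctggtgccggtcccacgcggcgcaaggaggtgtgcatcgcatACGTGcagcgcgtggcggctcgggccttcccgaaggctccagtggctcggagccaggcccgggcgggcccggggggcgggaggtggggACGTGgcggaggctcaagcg
Serpinh1 (chr7:99353210-99353439, minus strand): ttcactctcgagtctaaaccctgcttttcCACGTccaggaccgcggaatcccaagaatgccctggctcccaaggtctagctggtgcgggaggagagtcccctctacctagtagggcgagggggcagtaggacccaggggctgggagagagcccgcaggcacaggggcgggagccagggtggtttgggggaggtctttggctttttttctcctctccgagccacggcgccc
Within the full window of 300 bases, both strands searched, P4ha2 held 2 matches to ACGTG, starting at positions -78 and 10 from the start site. P4ha1 held 1, at -16, and Serpinh1 held 1, at -171, both on the other strand. ACGTG was not found in the windows of Plod1 and P4ha3. GCGTG, searched after the other values were known, had 2 matches each in Plod1 (-20 and 14), P4ha1 (-163 and -126) and P4ha2 (-107 and -69) and was not found in P4ha3 and Serpinh1. Of 32851 RefSeq promoters of the same length 19.6% held ACGTG and 32.4% GCGTG, so a match is frequent and is given only as a description of the sequence.

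Genes of the same pathway outside the 10 were read as a list of 21 that takes in P4hb, the prolyl 3-hydroxylases, collagen galactosyltransferases, procollagen proteinases and export factors. All 21 had enough UMIs in FAP-like cells. In old PBS over young PBS 3 were higher and 3 lower, with a median log2 ratio of -0.07. Of all genes, 15.3% were higher and 19.3% lower, with a median of -0.05, so the counts are not above those shares. The lower genes included P3h1, the prolyl 3-hydroxylase, at 119, 87.5 and 102 CPM (ratio 0.732), and P3h4, a partner in lysyl hydroxylation, at 65.3, 51.8 and 60.8 CPM (ratio 0.794). The low gene Adamts3 was the third. The higher genes were Pcolce2, an enhancer of procollagen cleavage, at 44.1, 77.4 and 78.8 CPM (ratio 1.76), and the low genes Loxl4 and Colgalt2. In old rMETRNL over old PBS 2 were higher (P3h2 and Adamts3) and 1 was lower (Colgalt2), with a median of 0.06. There 13.4% of all genes were higher and 12.3% lower, with a median of 0.02. P4hb, the shared beta subunit of prolyl 4-hydroxylase, was singled out after its values were seen and stood at 784, 697 and 743 CPM, within the fold in each comparison.

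The collagen chains are the substrates of these enzymes. Of 18 chains, 5 were higher and 2 lower in old PBS than in young PBS, with a median log2 ratio of 0.18. Of all genes, 15.3% were higher and 19.3% lower, with a median of -0.05. In old rMETRNL over old PBS 16 of 18 were below 1, of which 5 were past the fold, and the median was -0.19. Col11a1 was higher. There 12.3% of all genes were lower and 13.4% higher, with a median of 0.02. The chains higher in old PBS included those of the basement membrane collagen IV, with Col4a1 at 458, 743 and 525 CPM, and Col15a1 at 128, 222 and 132 CPM. Col8a1 stood at 413, 612 and 409.9 CPM. Col4a2 and Col5a3 were the other two. The lower chains were Col11a1, a minor fibril collagen, at 16.9, 4.82 and 12.6 CPM, and Col12a1 at 264, 169.95 and 205 CPM, the same order as P4ha2. Col1a1 and Col3a1, main fibril chains singled out after their values were seen, stayed within the fold: Col1a1 stood at 11894, 10285 and 9569 CPM and Col3a1 at 11658, 13659 and 12119 CPM. Serpinh1 and the prolyl 4-hydroxylase subunits were thus lowest, and Loxl1, Plod1 and Plod2 highest, in old PBS, where the list median of the chains was also high. The difference between enzymes and chains was not tested.

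A list of 12 genes used as a readout of hypoxia-inducible factors had 9 lower and 1 higher (Ndrg1) in old PBS than in young PBS, with a median log2 ratio of -0.76. Of all genes, 19.3% were lower and 15.3% higher, with a median of -0.05. In old rMETRNL over old PBS 9 of the 11 with enough UMIs were higher and 1, again Ndrg1, was lower, with a median of 0.59. There 13.4% of all genes were higher and 12.3% lower, with a median of 0.02. Both comparisons share the old PBS library. The genes named next were chosen after their values were seen. Pgk1, a glycolytic enzyme, stood at 230, 119 and 246 CPM, and Bnip3, a mitophagy receptor, at 41.9, 20.8 and 47.3 CPM. The glucose carrier Slc2a1 stood at 45.1, 30.1 and 43.1 CPM. Ndrg1 stood at 202, 324 and 228 CPM. Old rMETRNL over young PBS gave a list median of 0.02, with 1 higher and 3 lower, where 9.14% of all genes were higher and 10.5% lower. A list of 11 transforming growth factor beta target genes, all of them read, had 4 lower and 0 higher in old PBS than in young PBS (median -0.15). In old rMETRNL over old PBS 2 were higher and 1 lower (median -0.01). The shares of all genes are those given above for the hypoxia list.

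**Figure D3:**
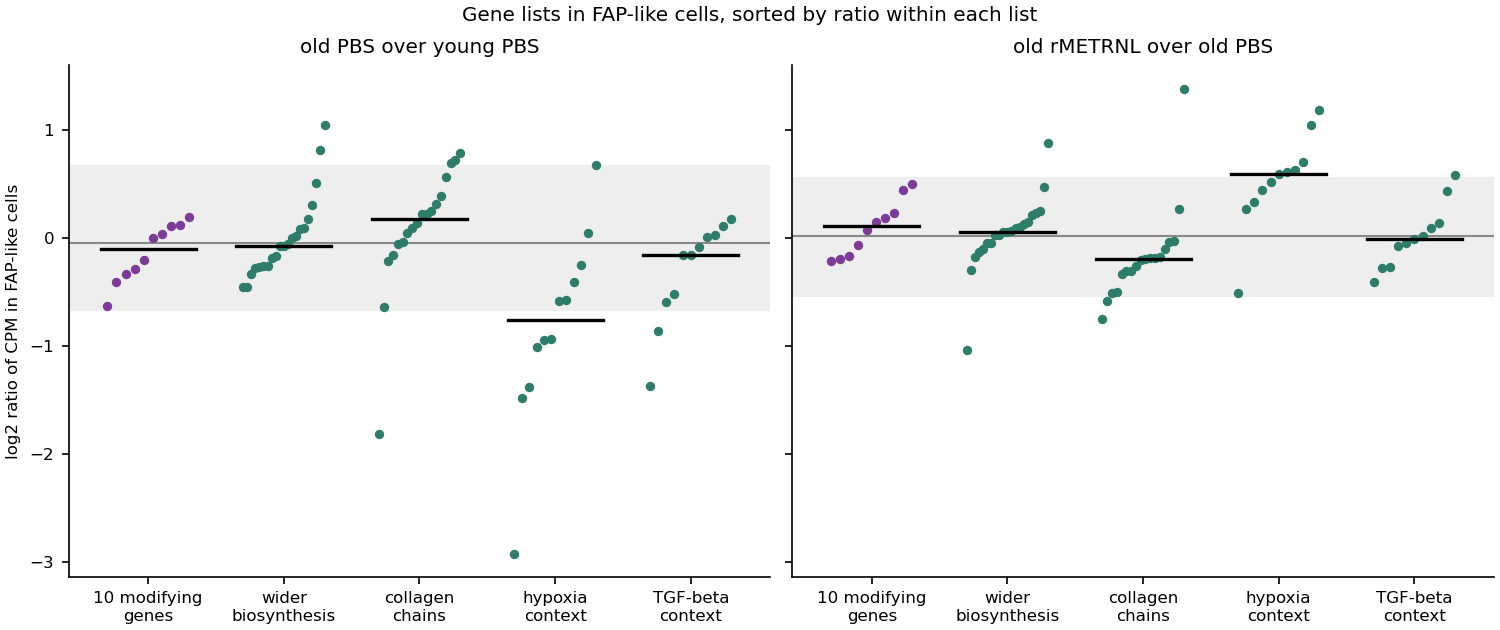
Log2 ratio of CPM in FAP-like cells for each gene of 5 lists, sorted within a list; short bars are list medians, the grey band holds the 5th to 95th percentile of all genes and the grey line their median. In old PBS over young PBS the median of the hypoxia list lies lowest and that of the collagen chains above the median of all genes, and in old rMETRNL over old PBS both list medians lie on the opposite side; single chains lie on either side in both panels.

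FAP-like cells were clustered again, without the 10 genes and the pathway lists, to see where among them the genes were high. The 10 sub-clusters that remained after removal of 1 with macrophage markers are named here by their leading genes. Their shares of the FAP-like cells differed between the libraries. The one led by Ifit1, Rsad2 and Cxcl10, genes of the interferon response, made up 13.1%, 26.1% and 16.4% of them, the Swt1-led one 23.3%, 10.4% and 12.6%, and the Hspb1-led one 10.3%, 4.13% and 10.2%. Cycling cells made up 7.89%, 4.21% and 9.82%, and the Slc16a3-led sub-cluster 7.21%, 2.40% and 8.65%. In the Ifit1-led cells, the most frequent of old PBS, P4ha2 stood at 66.1, 59.6 and 73.5 CPM and Serpinh1 at 1546, 1478 and 1630.3 CPM, with age ratios of 0.901 (0.784 to 1.04) and 0.956 (0.929 to 0.983). Lox (1.34) and Plod1 (1.36) were higher there in old PBS than in young PBS. One sub-cluster that was kept, led by Gucy1a1, Ccl20 and Notch3 (117, 121 and 89 cells), has 2 pericyte/smooth muscle markers and no FAP marker among its 10 leading genes. Without it, an alternative added after the data were seen, 3 members were still lower for age and 2 higher for treatment in FAP-like cells, with Serpinh1 at 0.796 and P4ha2 at 0.638 for age. Serpinh1 was found at high level in all of them, from 981 to 2328 CPM over sub-clusters and libraries. Loxl3, P4ha3 and Lox varied more. The Hmcn2-led sub-cluster, with 13, 69 and 38 cells, had P4ha3 at 6.34, 2.69 and 2.74 CPM and Lox at 82.5, 298 and 205 CPM. One led by Myoc, Clu and Inmt had Lox at 447, 388 and 473 CPM and Plod2 at 91.4, 87.7 and 72.1 CPM, all below the whole FAP-like class. Median depths in these 2 sub-clusters were the lowest of the class (8959 to 16691.5 UMIs).

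Loxl2 and Loxl3 went different ways in the sub-cluster led by Pi16 and Sema3c, genes of perivascular and fascial progenitors. Loxl2 was at its highest there, at 519, 467 and 527 CPM, where all other sub-clusters lay between 187 and 418 CPM. Loxl3 was near its lowest, at 55.7, 55.9 and 58.4 CPM, against 167, 145 and 165 CPM in the whole class. The Loxl3 values overlapped those of the Hmcn2-led sub-cluster (43.0 to 57.5 CPM) and lay below all the others.

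In young PBS and old rMETRNL, P4ha1 and P4ha2 were highest in a sub-cluster led by Slc16a3, a lactate exporter, Idi1 and Acta2, with Il11, Pgk1 and Eno1 also among its 10 leading genes. It held 118, 32 and 148 cells. P4ha2 stood there at 271, 93.6 and 183 CPM against 88.9, 68.1 and 87.1 CPM in the rest of the FAP-like class. P4ha1 stood at 314, 172 and 316 CPM against 159, 142 and 180.2 CPM. In old PBS it was not the highest for P4ha1, which stood at 181 CPM in the Hmcn2-led cells, and its P4ha2 level was close to the 90.04 CPM of those cells. Serpinh1 was higher in the sub-cluster too, at 2328, 1865 and 2109 CPM against 1838, 1486 and 1723 CPM. Pgk1 stood there at 727, 372 and 614 CPM against 175, 109.5 and 200.3 CPM, but it is a leading gene of the sub-cluster, so this is no separate observation.

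Within that sub-cluster several members were lowest in old PBS. P4ha2 in old PBS was 0.346 times young PBS (0.280 to 0.423), P4ha1 0.547 times (0.467 to 0.637) and Plod2, at 286, 135 and 230 CPM, 0.473 times (0.397 to 0.561). Lox stood at 1058, 643 and 806 CPM, a ratio of 0.607 (0.560 to 0.657), beside 0.9995 over all FAP-like cells. Plod1, highest in old PBS over the whole class, was lowest in old PBS here, at 138, 79.1 and 113 CPM, with ratios of 0.574 (0.453 to 0.720) for age and 1.43 (1.14 to 1.81) for treatment. In old rMETRNL over old PBS P4ha2 had a ratio of 1.96 (1.596 to 2.43), P4ha1 1.84 (1.58 to 2.15), Plod2 1.70 (1.43 to 2.03) and Lox 1.254 (1.16 to 1.36). Old rMETRNL also lay below young PBS past the fold for P4ha2 (0.677), Lox (0.762) and P4ha3 (0.753). P4ha3 was lowest in old rMETRNL, at 111, 87.3 and 83.6 CPM, and Loxl1 was highest in old PBS, at 551, 673 and 533 CPM. The old PBS values rest on 32 cells. The share of all genes past the fold within this sub-cluster is not given here, so these ratios cannot be set beside it. With the sub-cluster left out, an alternative added after the data were seen, P4ha2 over all other FAP-like cells was 0.767 times young PBS in old PBS and 1.28 times old PBS in old rMETRNL, still past the fold in both.

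Counts over the sub-clusters include the Slc16a3-led one. The sub-clusters are parts of the same libraries, so they do not repeat a comparison, and no such count over all genes is given. In old PBS over young PBS, P4ha3 and Serpinh1 had a ratio below 1 in 9 of 9 sub-clusters with at least 30 cells in both libraries, and P4ha1 and P4ha2 in 8 of 9. Past the fold were 1 of the 9 for Serpinh1 (the Gucy1a1-led cells, 0.759), 2 for P4ha3, 4 for P4ha1 and 5 for P4ha2. The exception for both P4ha1 and P4ha2 was the sub-cluster led by Swt1, Trmt1l and Ddit4l, with ratios of 1.15 each. In old rMETRNL over old PBS, P4ha1, P4ha2 and Serpinh1 had a ratio above 1 in 10 of 10. Past the fold were 4, 4 and 2 of the 10, and their lowest ratios were 1.07, 1.01 and 1.02. Lox had no such common direction: its age ratio ran from 0.607 in the Slc16a3-led cells to 1.57 in the Swt1-led cells (530, 834 and 646 CPM), with 4 sub-clusters higher and 2 lower. The whole-class ratio of 0.9995 is over sub-clusters whose shares also differed between the libraries, and with equal weights it was 1.03. Lox was highest of all in old PBS cells led by Hspb1, Dnaja4 and Fos, genes of stress responses, at 1229 CPM against 810.4 and 986 CPM in young PBS and old rMETRNL.

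**Figure D4:**
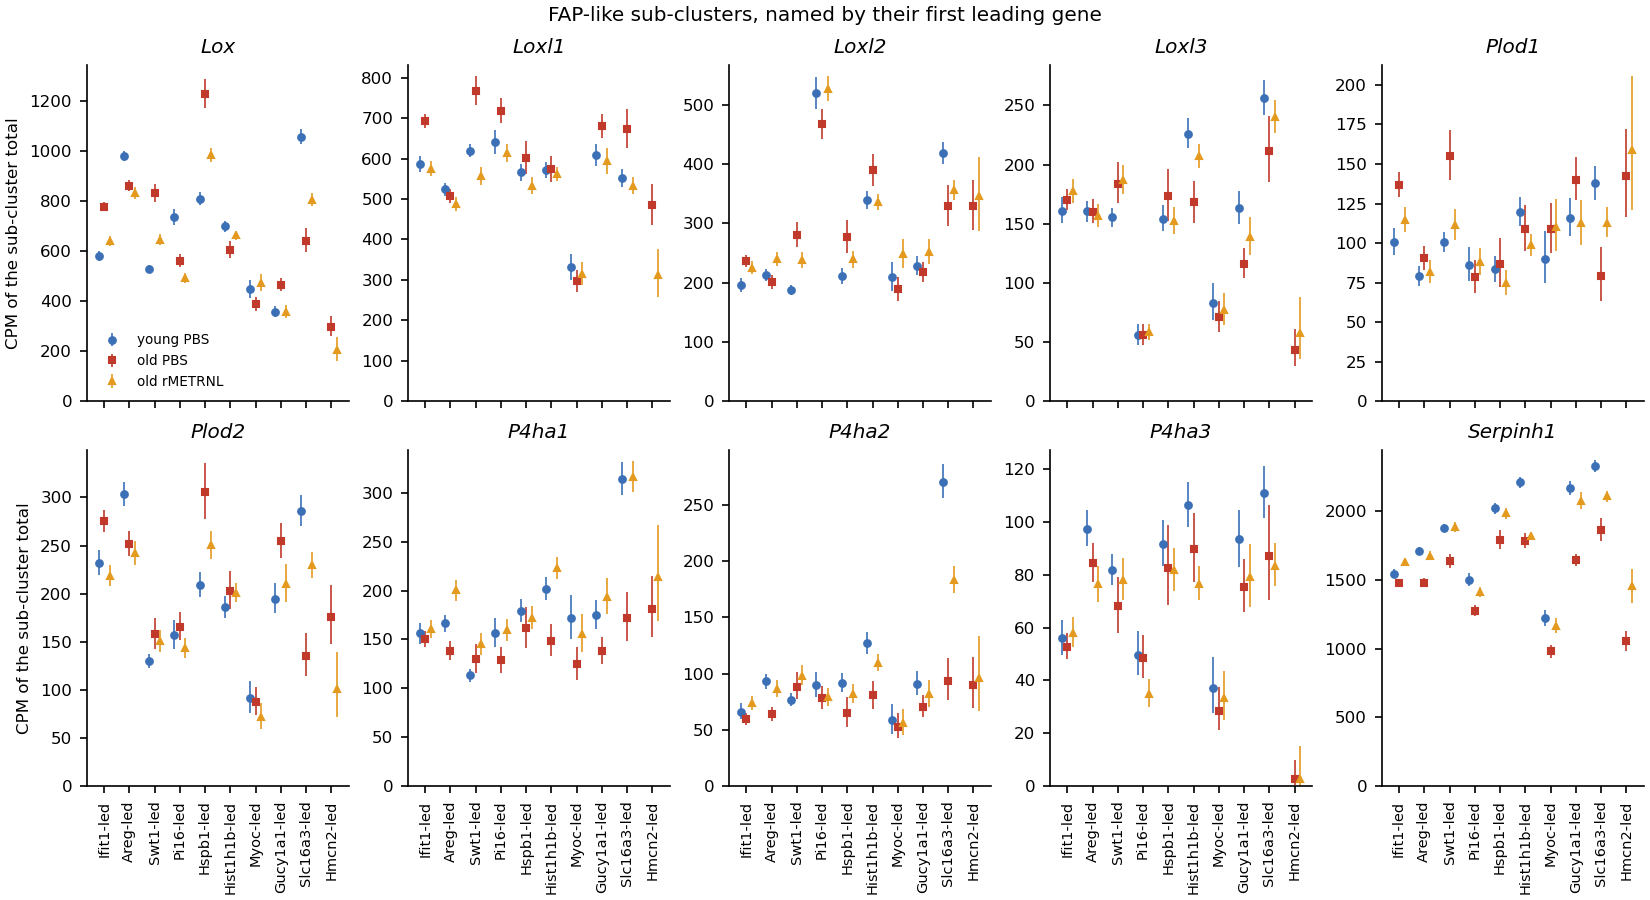
Level of each gene (CPM of the sub-cluster total) in 10 FAP-like sub-clusters named by their first leading gene, by library, with exact 95% counting intervals; points with fewer than 30 cells are not drawn. P4ha1 and P4ha2 peak in young PBS and old rMETRNL cells led by Slc16a3, Loxl2 peaks and Loxl3 is low in cells led by Pi16, and old PBS has the highest Lox in cells led by Hspb1.

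Over 29 profiles, each the sum of 1 sub-cluster in 1 library with at least 30 cells, P4ha1 and P4ha2 had a Pearson correlation of 0.793. The next pairs were Loxl3 with Serpinh1 (0.792), Loxl3 with P4ha3 (0.763) and Lox with P4ha3 (0.712). P4ha1 and P4ha3 had a correlation of 0.0056. Profiles of 1 library share its depth and its free RNA, and profiles of 1 sub-cluster share its cell state, so these are descriptions. Among 10059 other genes the profile most like P4ha2 was that of Tmem45a (0.863), followed by Higd1a, a mitochondrial protein induced by hypoxia (0.855), and Dda1 (0.842). For P4ha1 they included Jmjd6 (0.784) and the glycolytic enzyme Aldoa (0.781). Hif1a, the oxygen-regulated transcription factor subunit, was the gene most like Lox (0.852). Serpinh1 was most like Ydjc (0.917), Sec22b (0.917), which acts in transport from the endoplasmic reticulum, and P3h1 (0.907). The first genes for Loxl1, Loxl2, Loxl3, Plod1 and P4ha3 were Ttyh2 (0.819), Calu (0.866), Chst2 (0.948), Adcyap1r1 (0.838) and Rpl41 (0.955).

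In tenocyte-like cells, with 186, 119 and 210 cells, 2 of the 4 lysyl oxidases were past the fold for treatment and 1 other for age. Lox stood at 1354, 1176 and 1549 CPM, with old rMETRNL 1.32 times old PBS (1.26 to 1.38). In that comparison 5 of the 10 genes were higher (Lox, Loxl3, P4ha1, P4ha2 and Serpinh1) and 0 lower, where 10.5% of 8055 genes were higher and 18.4% lower, and the median log2 ratio was 0.30 beside -0.05 for all genes. The P4ha2 interval there, 0.959 to 1.93, takes in 1. In old PBS over young PBS 3 were lower (Loxl1, P4ha3 and Serpinh1) and 0 higher, where 14.7% of 8284 genes were lower and 18.2% higher. Serpinh1 stood at 1474, 1148 and 1453 CPM, a ratio of 0.779 (0.743 to 0.817), and Loxl1 at 372, 283 and 296 CPM, a ratio of 0.760 (0.690 to 0.836). The collagen I chains Col1a1 and Col1a2 were also lower in old PBS than in young PBS and higher in old rMETRNL than in old PBS in these cells, past the fold. In FAP-like cells they stayed within it, with age ratios of 0.865 and 0.965. The difference between the classes was not tested.

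Serpinh1 was also lower in old PBS than in young PBS outside the fibroblasts, past the fold in endothelial-like and pericyte/smooth muscle-like cells. Its ratio was below 1 in 8 of 8 classes with enough UMIs. In 3 of these it was low: 0.480 to 0.550% of its FAP-like level in macrophage/monocyte-like, 0.620 to 0.707% in dendritic-like and 0.763 to 0.876% in T/NK-like cells. The 6 FAP markers stood in the same classes at 0.212 to 0.928%, 0.226 to 0.713% and 0 to 1.16% of theirs, so these Serpinh1 values are not read as expression. It was past the fold in 4 classes, FAP-like, tenocyte-like, endothelial-like and pericyte/smooth muscle-like cells. The FAP-like call was lost under 7 of 14 alternative settings. Endothelial-like cells had 701, 482 and 723 CPM, so that old PBS was 0.687 times young PBS (0.659 to 0.716) and old rMETRNL 1.502 times old PBS (1.44 to 1.57). Of all genes read in endothelial-like cells, 23.2% were lower in old PBS and 20.2% higher in old rMETRNL than in old PBS. Pericyte/smooth muscle-like cells had 1207, 588 and 695 CPM, ratios of 0.487 (0.432 to 0.548) and 1.18 (1.04 to 1.34), where 30.5% of genes were lower in old PBS. Young PBS was also the deepest library in both classes, with median depths of 11402, 3938 and 7223 UMIs in endothelial-like and 6131, 2444 and 1905 UMIs in pericyte/smooth muscle-like cells, and its part in the result was not tested. Serpinh1 in myogenic-like cells stood at 471, 393 and 447 CPM, within the fold.

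P4ha1 was higher in old rMETRNL than in old PBS in 5 of the 9 classes read and lower in 2. Myogenic-like cells had 60.2, 41.9 and 58.7 CPM, with old PBS 0.695 times young PBS (0.606 to 0.796) and old rMETRNL 1.40 times old PBS (1.22 to 1.61), where 11% of genes were lower in the first and 9.21% higher in the second. Macrophage/monocyte-like cells had 54.4, 43.8 and 58.3 CPM, a treatment ratio of 1.33 (1.27 to 1.39), where 16% of genes were higher. T/NK-like cells had 45.0, 44.2 and 60.1 CPM, a treatment ratio of 1.36 whose interval (0.948 to 1.94) takes in 1, where 14% of genes were higher. The classes with lower P4ha1 in old rMETRNL were pericyte/smooth muscle-like cells, at 121, 142 and 110.3 CPM (ratio 0.776, 0.580 to 1.04), where 22.6% of genes were lower, and Schwann/glia-like cells, where 23.8% were lower. Endothelial-like cells had 75.01, 77.1 and 95.9 CPM, a treatment ratio of 1.24 (1.12 to 1.38), just within the fold. Plod1 was past the fold for age in 3 of 8 classes, lower in each. They were endothelial-like cells (147, 113 and 125 CPM, ratio 0.765, 0.700 to 0.836), where 23.2% of genes were lower, pericyte/smooth muscle-like cells (0.777, 0.530 to 1.13), where 30.5% were, and T/NK-like cells (0.627, 0.341 to 1.13, on 53 UMIs), where 15.4% were. The last 2 intervals take in 1, and the difference from FAP-like cells was not tested.

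Low levels of Lox in endothelial-like cells (12.1, 18.4 and 9.78 CPM) and myogenic-like cells (20.3, 30.7 and 19.5 CPM) were highest in old PBS. In endothelial-like cells they were 1.42 to 2.57% of the FAP-like level, and the FAP marker Dcn there moved in the same order, at 0.383%, 1.15% and 0.598% of its FAP-like level. In myogenic-like cells they were 2.83%, 4.28% and 2.84% of the FAP-like level. Dcn there was at 0.446%, 0.376% and 0.391%, lowest in old PBS, and all 6 FAP markers lay between 0.236 and 1.32%. Whether free RNA accounts for part of these Lox values was not tested. In pericyte/smooth muscle-like cells Lox stood at 23.98, 54.8 and 128 CPM on 56 UMIs in young PBS and old PBS together, or 3.34%, 7.64% and 18.6% of its FAP-like level. Dcn there was in the same order, at 3.01%, 4.62% and 11.9%, and its part in the Lox values was not tested.

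**Figure D5:**
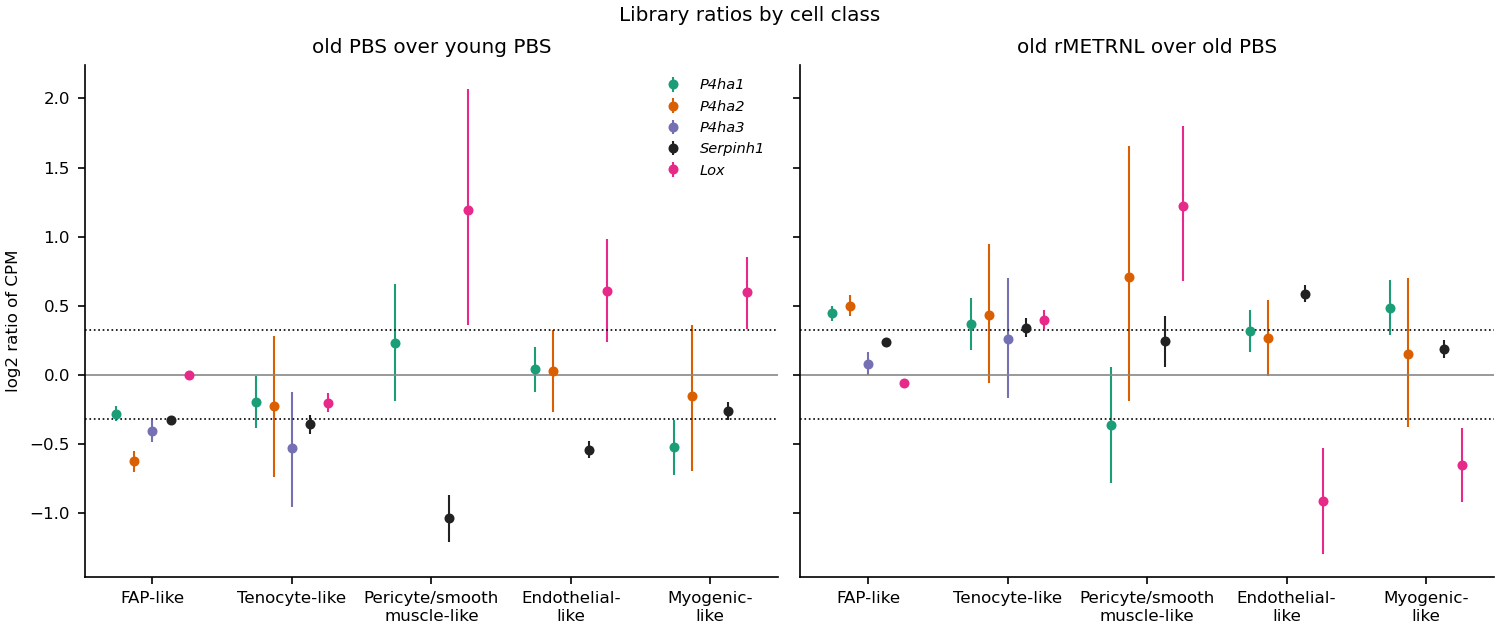
Log2 ratio of CPM for P4ha1, P4ha2, P4ha3, Serpinh1 and Lox in 5 cell classes, for genes with at least 50 UMIs over both libraries; bars are exact 95% counting intervals and dotted lines mark the fold. Serpinh1 lies below 0 in all 5 classes for old PBS over young PBS and above 0 in all 5 for old rMETRNL over old PBS, while Lox differs in direction between classes.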

How the data were processed

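Single-cell RNA was measured in 3 libraries of injured muscle, 1 per group. Per the file headers the authors' counts came from Cell Ranger 5.0.0, and the submitters' processing notes name versions 5.0.0 and 3.1.0 and build mm10. The deposited values are raw UMI counts per gene and barcode, not normalized. Barcodes entered when they had 500 or more genes detected and a mitochondrial share below 10%. Scrublet (scanpy 1.11.5) set no threshold that called doublets, so the highest scores were removed, at 0.8% per 1000 barcodes. Counts were clustered (2000 variable genes, 30 components, 20 neighbours, Leiden resolution 0.8) with the 10 genes, the wider pathway list and the collagen chains left out, and clusters were named "-like" from marker lists. 2 clusters with conflicting leading genes (3187 and 1846 cells) stayed unnamed. Macrophage/monocyte scored best in both, with 13 of its markers detected. More mast cell or neutrophil markers were among their 10 leading genes. Rebuilt names can differ from the study's. UMIs were summed per class and library as CPM; ratios carry exact conditional binomial intervals and levels exact Poisson intervals (scipy 1.17.1), tested on simulated data.

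The members, gene lists and markers were chosen with earlier results of these data known, and the rule for naming clusters was changed after clusters were seen. All 10 members are named; of the pathway and chain lists, genes past the fold may be named; for each member the 3 genes of highest correlation of log2(CPM + 1) were found among genes with at least 500 UMIs. Some genes that these rules select are not reported here. Gene positions are from GENCODE M21. Alternatives varied cell filters, doublets, resolution, clustering genes, a Pdgfra gate, scaling, thinning, sub-cluster weights and the fold. Intervals cover counting error only, since the library, not the cell, is the replicate.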

Additional observations from a re-analysis of the deposited data

Results flagged for a closer look

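P4ha1 is given here because its difference between old rMETRNL and old PBS had opposite directions in 2 cell classes. FAP-like cells had a ratio of 1.36 (1.31 to 1.41), while Schwann/glia-like cells had a ratio of 0.600 (0.354 to 0.985), at 107 and 64.3 CPM. The Schwann/glia-like value rests on 96 and 62 cells and on 83 P4ha1 UMIs in both libraries together, and 23.8% of the 3225 genes read in that class were lower. The difference between the 2 classes was not tested, since each group is 1 library.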

How the results depend on the processing

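No paired analysis was possible because each group is 1 library. No ratio of a member in FAP-like cells that was past the fold changed direction. Of 420 values of a member under an alternative, 324 lay within the counting interval of the reported ratio and 96 outside it; values past the fold stayed past it in 67 of 84 cases, and 2 of 336 others passed it. For age, 1 member (Plod1, 1.28) was higher in place of 0 after thinning to 2000 UMIs, and 1 was lower in place of 3 at a fold of 1.5. The count was 2 where Serpinh1 lost its call (stricter cell filter, resolution 0.4, Pdgfra gate, median-of-ratios scaling, and without the Slc16a3-led or the cycling sub-cluster); with equal sub-cluster weights Serpinh1 and P4ha3 lost theirs and P4ha1 (0.791) gained one. For treatment, 1 was higher in place of 2 after thinning and 0 at a fold of 1.5. In old rMETRNL over young PBS the count of lower members was 0 in place of 1 with doublet calls kept, at resolution 1.6, with all genes in clustering, with median-of-ratios scaling, after thinning, with equal sub-cluster weights, at a fold of 1.5, and without the Slc16a3-led or the cycling sub-cluster (the last 2, and leaving out the Gucy1a1-led sub-cluster, which changed no count of members, were added after seeing the data). The cause was not tested. Over all genes, the age counts of 2058 higher and 2598 lower became 5837 and 5987 with at least 1 UMI and 848 and 916 at a fold of 1.5. The treatment counts of 1801 and 1647 became 5249 and 5261, and 633 and 553, and 980 were lower with at least 200 UMIs. The counts for old rMETRNL over young PBS, 1249 and 1435, became 4639 and 4508, 467 and 521, and 720 and 766 with at least 200 UMIs. Depth limits the small classes: in single comparisons 4 to 5 of the 10 members had enough UMIs in dendritic-like, 2 to 4 in T/NK-like, 4 in Schwann/glia-like and 1 in mature fibre-like cells.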

Other observations

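Unnamed cells, which are 2 clusters led by Mcpt4 and Cx3cr1 and by S100a9 and S100a8 together with the Cd74-led sub-cluster removed from the FAP-like cells (70, 57 and 80 cells), held 10.5 to 12.9% of all Plod1 UMIs and 8.93 to 11.6% of all P4ha1 UMIs, and 3.30 to 5.57% of the UMIs of the other 8 genes. Mature fibre-like droplets of old PBS and old rMETRNL had Serpinh1 at 39.5 and 27.0 CPM and Lox at 16.8 and 15.8 CPM, and Serpinh1 was lower there than in any other non-immune class. T/NK-like cells had Plod2 at 15.0 to 27.0 CPM, above the 0.894 to 1.11 CPM of macrophage/monocyte-like cells.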
